A study of Mus musculus with 6 samples.

Results

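The mitochondrial respiratory chain is built from 2 genomes, and 48 of its genes were followed here in dental epithelial cells of newborn mice with a conditional knockout of Pkm and of controls. They are 35 nuclear genes, 19 coding for complex I, 6 for complex III with cytochrome c as a 7th, and 9 for complex IV, and the 13 protein-coding genes of the mitochondrial DNA. The genes were taken by symbol from a table of 24959 genes, and all 48 were found and had enough reads to be tested. Samples were 3 Pkm cKO libraries, labelled PKM knockout, and 3 control libraries, labelled WT, all taken at postnatal day 0 and called biological replicates. Pkm codes for the M-type pyruvate kinases, which make pyruvate in the last step of glycolysis. No source used here gives the Cre driver, the deleted exons, the strain or whether tissue was pooled, and the p-values cover the spread between these samples only.

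Complex I takes electrons from NADH, complex III passes them from ubiquinol to cytochrome c, and complex IV hands them to oxygen. All 3 pump protons, and ATP synthase uses the resulting gradient. The mitochondrial DNA carries the membrane core of complex I (ND1 to ND6 and ND4L), cytochrome b of complex III (CYTB), the catalytic core of complex IV (COX1 to COX3) and a pair of ATP synthase subunits (ATP6 and ATP8). Every other subunit is made from nuclear genes and imported. Mitochondrial DNA is transcribed in long transcripts that are cut into single RNAs. ND6 is the only one of the 13 that is read from the opposite strand.

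The libraries held 30588350 to 39085792 reads in the Pkm cKO group and 38130829 to 39415700 in the control group. Pkm itself had 309, 395 and 350.5 CPM (reads relative to the scaled library size) in Pkm cKO replicates 1 to 3, against 1281, 1185 and 1049 CPM in control replicates 1 to 3. It fell by 1.74 on the log2 scale (SE 0.16, adjusted p = 0.0109, edgeR's quasi-likelihood test with Benjamini-Hochberg adjustment over 15930 genes). Markers of dental epithelium were present in every library, with summed levels of 8416 to 13715 CPM in Pkm cKO and 20864 to 34070 CPM in control libraries, Amelx and Ambn of the enamel matrix included. Amelx alone held 122.1 to 4136 CPM in Pkm cKO and 8564 to 18617 CPM in control libraries. Markers of dental mesenchyme and odontoblasts, mostly collagen reads, summed to 17257 to 41461 CPM in Pkm cKO and 20824 to 34198 CPM in control libraries. Pkm cKO replicate 3 stood apart in 9 skeletal muscle markers, which summed to 75.8, 17.3 and 3461 CPM in Pkm cKO replicates 1 to 3, against 4.60, 3.60 and 3.79 CPM in control replicates 1 to 3. Immune markers summed to 116 to 199 CPM in Pkm cKO and 64.5 to 67.4 CPM in control libraries, erythroid markers to 268 to 356 CPM and 575 to 805 CPM, and endothelial markers to 222 to 459 CPM and 230 to 293 CPM.

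The sets of nuclear and mitochondrial genes stood on opposite sides of 0. Of the 35 nuclear genes, 30 had a lower fitted level in Pkm cKO than in control libraries, with a median log2 fold change of -0.13 (range -0.61 to 0.09). All 13 mitochondrial genes had a higher one, with a median of 0.53 (range 0.02 to 0.85). Over all tested genes 49.2% were below 0, 50.8% were above 0 and the median was 0.01. Among nuclear genes the difference amounted to less than 10% for most subunits of complex I. For most mitochondrial genes it was between 31.1% and 80.7%. The nuclear median was -0.06 without control replicate 3 and -0.21 without control replicate 2, and the mitochondrial median was 0.28 without Pkm cKO replicate 3. In bulk RNA such as this, fewer cells of a type and less RNA per cell cannot be told apart.

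No single member passed the test over all genes. At an adjusted p under 0.05, edgeR called 0 of the 35 nuclear and 0 of the 13 mitochondrial genes, where 0.552% of all tested genes were called, 0.207% as lower and 0.345% as higher in Pkm cKO. At an unadjusted p under 0.05 it gave 5 nuclear genes, all lower, and 6 mitochondrial genes, all higher, where 7.9% of all genes were lower and 9.57% higher. The 3 Pkm cKO values lay wholly below the 3 control values for 11 nuclear genes (31.4%) and wholly above them for none. Of all tested genes, 12.2% were wholly lower. For 3 mitochondrial genes (23.1%), ND1, COX1 and COX2, the Pkm cKO values lay wholly above the control values, against 11.2% of all tested genes. Leaving out Pkm cKO replicate 3, the library with the muscle transcripts, gave 15 nuclear genes wholly lower (19.5% of all genes) and 3 mitochondrial genes wholly higher (17.2% of all genes), with 1 mitochondrial gene, ND6, wholly lower. DESeq2, which called 7.34% of the genes to which it gave an adjusted p, called Ndufa1, ND1 and COX1 (adjusted p = 0.0234, 0.00564 and 0.0249), and limma-voom called none of the 48.

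**Figure D1:**
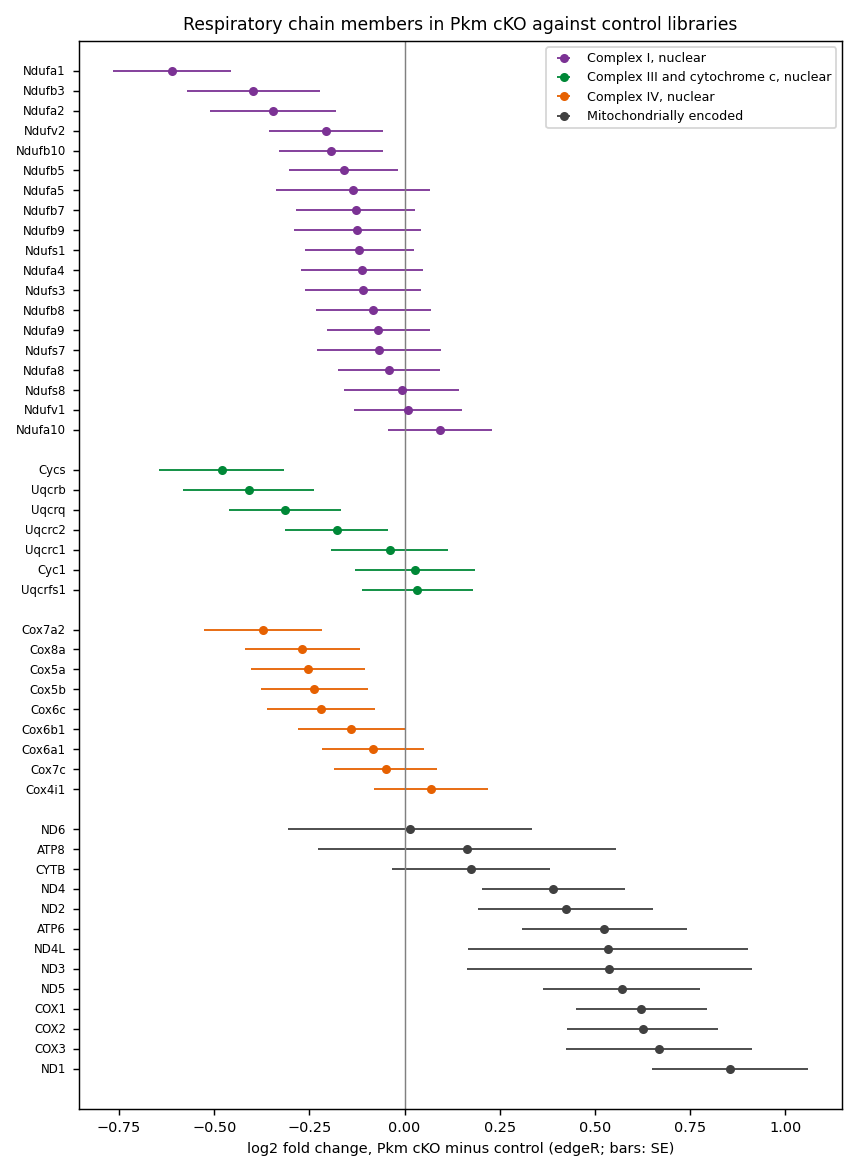
Log2 fold change of each of the 48 genes, Pkm cKO minus control, from edgeR (points) with its SE (bars), grouped by complex and origin and fitted over 3 libraries per group. Most nuclear genes lie left of 0, down to -0.61 for Ndufa1, and all mitochondrial genes lie right of it, up to 0.85 for ND1.

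In complex I, 17 of 19 nuclear genes were below 0, with a median log2 fold change of -0.12. The member with the lowest p was Ndufa1, a small accessory subunit needed to assemble the membrane arm. It had 58.2, 45.4 and 49.1 CPM in Pkm cKO replicates 1 to 3, against 84.7, 73.1 and 75.3 CPM in control replicates 1 to 3. Every Pkm cKO library was below every control library, by 34.5% on the fitted scale (log2 fold change -0.61 with an SE of 0.15, adjusted p = 0.0997 by edgeR).

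Ndufb3, another accessory subunit of the membrane arm, had 24.6, 26.7 and 29.1 CPM in Pkm cKO libraries, against 31.8, 33.5 and 40.6 CPM in control libraries (log2 fold change -0.40 with an SE of 0.17, adjusted p = 0.279 by edgeR). Its groups did not overlap either. The third gene wholly lower in Pkm cKO was Ndufb10, with 85.8 to 98.5 CPM in Pkm cKO and 100.1 to 110.1 CPM in control libraries (log2 fold change -0.19). Ndufa2 came next to Ndufb3 in fold change (-0.35), but Pkm cKO replicate 1, at 91.5 CPM, lay above control replicate 2, at 88.2 CPM.

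The nuclear-coded core of complex I binds NADH and carries the flavin and the iron-sulfur clusters. Its 6 members had a median log2 fold change of -0.09, and 0 of them had groups that did not overlap. Ndufv1, which binds NADH and the flavin, averaged 135 ± 7.90 CPM in Pkm cKO and 134.1 ± 12.7 CPM in control libraries (SD, n = 3 each, log2 fold change 0.01, 95% interval -0.30 to 0.32). Ndufs8 stood at -0.01 (95% interval -0.35 to 0.33), Ndufs7 at -0.07, Ndufs3 at -0.11 and Ndufs1, which carries several clusters, at -0.12. Ndufv2 was the lowest of the core, at -0.21 with overlapping groups. The 13 accessory subunits had a median of -0.13 and 3 that were wholly lower, against 12.2% of all tested genes. The difference between core and accessory subunits was not tested.

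The remaining accessory subunits all had overlapping groups. Ndufb5 was at -0.16, Ndufa5 at -0.14, Ndufb7 at -0.13, Ndufb9 at -0.12, Ndufa4 at -0.11, Ndufb8 at -0.08, Ndufa9 at -0.07 and Ndufa8 at -0.04 in log2 fold change. Ndufa4 carries a complex I name but has since been assigned to complex IV. Ndufa10 had the highest value of the 35 nuclear genes (0.09), with 103.6, 116.4 and 118.2 CPM in Pkm cKO libraries, against 107.2, 99.8 and 110.1 CPM in control libraries.

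Among the genes of complex III and cytochrome c, 5 of 7 were below 0 (median log2 fold change -0.18), and 4 were wholly lower in Pkm cKO (12.2% of all tested genes). Cycs codes for cytochrome c, the mobile carrier between complexes III and IV, which also triggers caspase activation when released. It had 33.9, 39.2 and 41.1 CPM in Pkm cKO libraries, against 59.2, 47.4 and 52.7 CPM in control libraries (log2 fold change -0.48 with an SE of 0.16, adjusted p = 0.18 by edgeR). Uqcrb, a ubiquinone-binding subunit, had 46.3, 38.7 and 55.6 CPM in Pkm cKO libraries, against 61.6, 58.3 and 66.8 CPM in control libraries (log2 fold change -0.41 with an SE of 0.17, adjusted p = 0.259 by edgeR). Both genes were lower in all 3 Pkm cKO libraries than in any control library.

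Uqcrq, a small subunit, was also wholly lower (log2 fold change -0.31, edgeR adjusted p = 0.307), and so was Uqcrc2, a core subunit without a redox centre (-0.18, 149 to 156.4 CPM in Pkm cKO and 158.2 to 183.4 CPM in control libraries). The subunits that hold the redox centres stood at 0.03, both Uqcrfs1, the Rieske iron-sulfur protein, and Cyc1, cytochrome c1. Their groups overlapped, as did those of Uqcrc1 (-0.04).

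In complex IV, 8 of 9 nuclear genes were below 0 (median log2 fold change -0.22), and 4 were wholly lower in Pkm cKO (12.2% of all tested genes). Cox7a2, the widely expressed form of subunit VIIa, had 89.2, 84.3 and 94.8 CPM in Pkm cKO libraries, against 108, 103.8 and 135.5 CPM in control libraries (log2 fold change -0.37 with an SE of 0.15, adjusted p = 0.253 by edgeR). Cox5a and Cox5b, peripheral subunits on the matrix side, were at -0.25 and -0.24, and Cox6c at -0.22, each with no overlap. Cox8a stood at -0.27, but the highest Pkm cKO value, 186.9 CPM, just passed the lowest control value, 186.6 CPM.

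Cox6b1 (-0.14), Cox6a1 (-0.08) and Cox7c (-0.05) were lower with overlapping groups. Cox4i1, which takes part in the control of the enzyme by ATP, was the only nuclear complex IV gene above 0. It had 448.4, 473.8 and 420.8 CPM in Pkm cKO libraries, against 405, 386.7 and 488.8 CPM in control libraries (log2 fold change 0.07, 95% interval -0.26 to 0.40).

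Several short genes were among the lowest, so transcript length was set beside the fold change. Lengths were those of the principal transcripts in GENCODE M21. Ndufa1 had the shortest transcript of the 35, at 419 bases. The 12 nuclear members under 700 bases were all below 0, with a median log2 fold change of -0.20, where 241 tested genes of that length had a median of -0.04. The 14 members from 700 to 1500 bases had a median of -0.12, against 0.04 over 1774 genes of that length, and the 8 members from 1500 to 3000 bases had -0.08, against 0.04 over 4774 genes. Cycs was the only member above 3000 bases. Across the 35 nuclear members, Spearman's rho between length and fold change was 0.329, against -0.081 over 13857 genes, and genes are not independent replicates. The part of length in the result was not tested.

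Nuclear genes of the chain are known targets of the factors NRF1, GABP and YY1, so their promoters were searched, on both strands, for GCGCA, any base and GCGC (NRF1), CCGGAAG (GABP, an ETS factor) and AANATGGCG (YY1). A promoter here runs from 250 bases before to 50 bases after the gene's start in RefSeq (GRCm38.p6), and 26 of the 35 nuclear members had one in the table used. The NRF1 letters stood in 4 of these 26 (15.4%) and in 5.19% of 27025 gene promoters. The GABP letters stood in 6 (23.1%, against 9.93%) and the YY1 letters in 2 (7.69%, against 2.76%). At least 1 of the 3 motifs was in 11 member promoters (42.3%, against 15.9%). The 27025 promoters were not limited to tested genes, and whether the difference is particular to the chain was not tested. For each motif the holder with the lowest p in complexes I, III and IV is printed 5′ to 3′ on the gene's strand, with the motif, or its reverse complement, in capitals. They are Ndufa5 (NRF1, chr6:24527477-24527776, minus strand), Cox8a (GABP, 2 matches, chr19:7217567-7217866, minus strand) and Ndufa9 (YY1, chr6:126849095-126849394, minus strand).
Ndufa5: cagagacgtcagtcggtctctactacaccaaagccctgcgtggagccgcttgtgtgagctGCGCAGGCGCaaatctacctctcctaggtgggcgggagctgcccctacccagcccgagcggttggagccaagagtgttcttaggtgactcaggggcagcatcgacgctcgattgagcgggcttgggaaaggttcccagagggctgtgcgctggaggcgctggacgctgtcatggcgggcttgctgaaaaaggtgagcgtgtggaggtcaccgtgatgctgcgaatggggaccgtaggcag
Cox8a: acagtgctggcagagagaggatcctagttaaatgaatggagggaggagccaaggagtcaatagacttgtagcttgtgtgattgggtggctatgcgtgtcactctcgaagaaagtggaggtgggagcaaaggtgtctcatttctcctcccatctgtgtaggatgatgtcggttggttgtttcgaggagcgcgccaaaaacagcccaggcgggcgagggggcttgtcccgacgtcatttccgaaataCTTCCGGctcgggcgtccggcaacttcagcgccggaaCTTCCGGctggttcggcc
Ndufa9: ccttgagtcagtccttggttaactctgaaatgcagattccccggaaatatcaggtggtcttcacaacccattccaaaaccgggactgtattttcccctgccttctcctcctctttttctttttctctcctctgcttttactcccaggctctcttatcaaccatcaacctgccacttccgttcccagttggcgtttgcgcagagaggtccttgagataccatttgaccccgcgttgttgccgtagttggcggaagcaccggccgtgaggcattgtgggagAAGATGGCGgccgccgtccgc

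Of the mitochondrial genes, ND1 differed most. It codes for a membrane subunit of complex I at the ubiquinone site and lies first in gene order. It had 3181, 3131 and 4413 CPM in Pkm cKO replicates 1 to 3, against 1601, 1875 and 2458 CPM in control replicates 1 to 3. The groups were well separated, with a log2 fold change of 0.85 (SE 0.20, edgeR adjusted p = 0.0889).

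COX1, the subunit of complex IV in which oxygen is reduced, had 9351, 7998 and 9825 CPM in Pkm cKO libraries, against 4822, 5977 and 6854 CPM in control libraries (log2 fold change 0.62 with an SE of 0.17, adjusted p = 0.116 by edgeR). COX2, which takes the electrons from cytochrome c, had 85.5, 64.9 and 76.6 CPM in Pkm cKO libraries, against 36.5, 51.7 and 58.8 CPM in control libraries (log2 fold change 0.63 with an SE of 0.20, adjusted p = 0.154 by edgeR). Neither gene's groups overlapped, and Pkm cKO replicate 2 came closest to the controls in both.

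The other genes of the mitochondrial DNA had overlapping groups. COX3 stood at 0.67, ND5 at 0.57 and ATP6 at 0.53 in log2 fold change, each with an unadjusted p under 0.05. ND3 (0.54), ND4L (0.53), ND2 (0.42) and ND4 (0.39) followed. In ND2, ND4 and ND5, control replicate 3 lay above Pkm cKO replicate 2.

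The lowest values belonged to CYTB, ATP8 and ND6. CYTB, the only mitochondrial gene of complex III, had 3340, 2748 and 4113 CPM in Pkm cKO libraries, against 2325, 3031 and 3689 CPM in control libraries (log2 fold change 0.17, 95% interval -0.29 to 0.64). ATP8 stood at 0.16 with 62 to 94 reads in Pkm cKO and 48 to 91 reads in control libraries. ND6 had 6.36, 6.05 and 12.7 CPM in Pkm cKO libraries, against 7.52, 8.03 and 9.34 CPM in control libraries (log2 fold change 0.02, 95% interval -0.70 to 0.73). Its value rested on Pkm cKO replicate 3, without which the log2 fold change was -0.41.

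The nuclear genome of mice holds copies of stretches of mitochondrial DNA, and the deposited rows of mitochondrial genes differed widely in level per length. In Pkm cKO libraries the 6 neighbouring genes from COX2 to ND4L had mean levels of 10.4 to 111 CPM per kb, and the rows around them, ND6 aside, had 873 to 5863 CPM per kb. In control libraries these levels were 7.796 to 71.7 CPM per kb and 665.6 to 3809 CPM per kb. ND6 had 16.1 CPM per kb in Pkm cKO and 15.98 CPM per kb in control libraries.

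Each mitochondrial gene was cut into all its windows of 100 bases, and each window was looked for in the transcripts of nuclear genes in GENCODE M21 (GRCm38). Identical copies covered 99.5% of the windows of COX2, 99.5% of ATP6, 99.9% of COX3, 97.6% of ND3 and 98.5% of ND4L, all in annotated copies on chromosome 1. They covered 60.8% of ND4, 30.8% of COX1 and 3.19% of ND2. No window of ND1, ND5, ND6 or CYTB was found in these transcripts. Copies outside annotated transcripts were not searched. No annotated transcript covers the stretch between the copies of COX2 and ATP6, so ATP8 could not be compared. None of these copies is a row of the count table. The authors' build is mm39 and no source used here gives the read length, so which reads were dropped or shared was not tested.

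To show how alike the copies are, the first 60 bases of COX3 and ND6, and bases 61 to 120 of CYTB, are printed with the same stretch of the nuclear copy, with differing bases in capitals. COX3 and its copy Gm28437 on chromosome 1 had 0 differences. ND6 and Gm11408 on chromosome 4 had 2 in the printed stretch and an identity of 93.6% over 519 bases. CYTB and Gm11410 on chromosome 4 had 5 in the printed stretch and 92.8% over 1143 bases.
COX3: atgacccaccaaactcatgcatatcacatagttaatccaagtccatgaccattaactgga
Gm28437: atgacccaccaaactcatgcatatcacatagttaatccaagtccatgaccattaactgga
ND6: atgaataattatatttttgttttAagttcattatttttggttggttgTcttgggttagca
Gm11408: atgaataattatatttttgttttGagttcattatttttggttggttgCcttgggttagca
CYTB: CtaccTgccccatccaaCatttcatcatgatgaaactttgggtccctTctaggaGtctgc
Gm11410: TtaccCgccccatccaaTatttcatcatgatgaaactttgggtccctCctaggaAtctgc

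Fold changes varied among rows with and without identical copies found in annotated transcripts. The 5 genes with 97.6% or more of their windows copied had log2 fold changes of 0.53 to 0.67. Of the rows in which no identical window was found, ND1 stood at 0.85, ND5 at 0.57, CYTB at 0.17 and ND6 at 0.02, the last 2 with intervals across 0. The 6 genes from COX2 to ND4L had a median log2 fold change of 0.54, and the other 7 had 0.42, from 0.02 for ND6 to 0.85 for ND1. The levels of COX2, ATP6, COX3, ND3 and ND4L are uncertain as levels, since reads that also match a copy cannot be told apart, and their counts of 79 to 4121 reads per library are a small part of the mitochondrial reads.

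**Figure D2:**
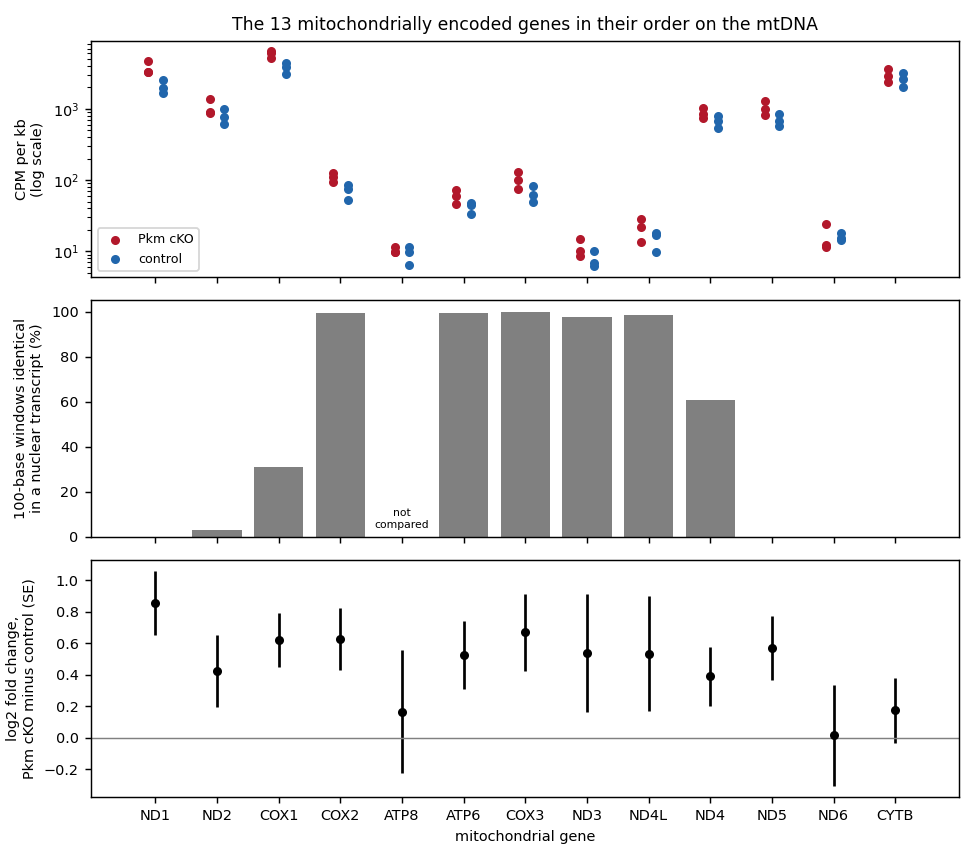
The 13 mitochondrial genes in their order on the mitochondrial DNA. Top, level in each library in CPM per kb on a log scale (Pkm cKO left, control right of each position). Middle, percent of 100-base windows found identical in a nuclear transcript. Bottom, log2 fold change, Pkm cKO minus control, with its SE. The rows from COX2 to ND4L lie far below those around them in both groups, while their fold changes, 0.16 to 0.67, lie within the range of the other genes.

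The make-up of the mitochondrial reads also differed between groups. ND1 made up 15.9%, 17.9% and 18.5% of the reads of the 13 genes in Pkm cKO replicates 1 to 3, against 14.2%, 13.4% and 14.6% in control replicates 1 to 3. CYTB made up 16.7%, 15.7% and 17.3% in Pkm cKO libraries, against 20.6%, 21.7% and 21.9% in control libraries. ND4 had 5.80% to 5.99% in Pkm cKO and 6.47% to 6.61% in control libraries. The share of ND6, under 0.1%, was also wholly lower in Pkm cKO. That of ATP8 was 0.0098% to 0.0115% in Pkm cKO and 0.0116% to 0.0169% in control libraries. This gap is too small to read on 48 to 94 reads per library. The other 8 genes overlapped, COX1 with 41.3% to 46.8% in Pkm cKO and 40.8% to 42.8% in control libraries.

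ND1 and CYTB are 2 genes with no identical window found in annotated nuclear transcripts. The ratio of their reads, ND1 to CYTB, was 0.952, 1.14 and 1.07 in Pkm cKO libraries, against 0.689, 0.619 and 0.666 in control libraries. The groups did not overlap, and the mean was 1.60-fold higher in Pkm cKO. The ratio of COX1 to CYTB was 2.80, 2.91 and 2.39 in Pkm cKO libraries, against 2.07, 1.97 and 1.86 in control libraries. These ratios show an unequal difference among the genes, not which gene moved, and carry no p because the pairs were picked after the values were seen.

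**Figure D3:**
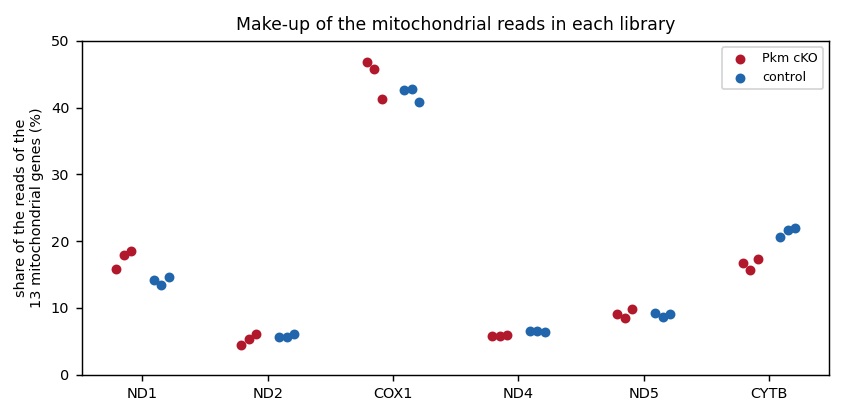
Share of the reads of the 13 mitochondrial genes taken by the 6 most abundant of them, in percent, for each Pkm cKO library (left of each position) and each control library (right). ND1 took a larger and CYTB and ND4 a smaller share in every Pkm cKO library than in any control library.

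The mitochondrial genes were more abundant relative to the nuclear ones in every Pkm cKO library than in any control library. The 13 mitochondrial genes held 2.02%, 1.79% and 2.45% of all reads in Pkm cKO replicates 1 to 3, against 1.09%, 1.39% and 1.64% in control replicates 1 to 3. The 35 nuclear genes summed to 3855, 4083 and 4005 CPM in Pkm cKO libraries, against 4304, 3967 and 4728 CPM in control libraries. The mitochondrial shares did not overlap between groups, and the nuclear sums did, through control replicate 2.

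The ratio of mitochondrial to nuclear reads was 5.18, 4.28 and 5.94 in Pkm cKO libraries, against 2.62, 3.52 and 3.56 in control libraries. Its mean was 5.14 ± 0.83 in Pkm cKO and 3.23 ± 0.53 in control libraries (SD, n = 3 each), a 1.59-fold difference with no overlap. No p is given for this sum over chosen genes. Without Pkm cKO replicate 3 the difference was 1.46-fold, and without control replicate 1, the library with the lowest ratio, it was 1.45-fold.

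Within each complex the mitochondrial subunits were set over the nuclear ones. For complex I the ratio averaged 5.17 ± 0.99 in Pkm cKO and 3.04 ± 0.52 in control libraries. For complex IV it averaged 6.07 ± 0.71 in Pkm cKO and 3.62 ± 0.51 in control libraries. Neither overlapped between groups. For complex III, where CYTB is the only mitochondrial gene, it was 3.77, 2.61 and 4.33 in Pkm cKO libraries, against 2.20, 3.197 and 3.28 in control libraries, and the groups overlapped.

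**Figure D4:**
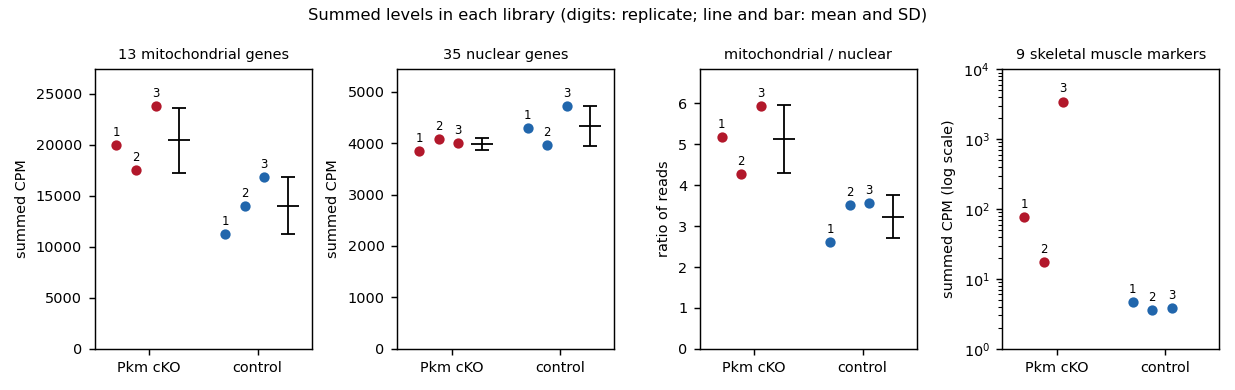
Summed CPM of the 13 mitochondrial and the 35 nuclear genes, the ratio of their reads, and the summed CPM of 9 skeletal muscle markers (log scale) in each library, Pkm cKO left of control. Digits are replicate numbers, and lines with bars are the mean and SD of 3 libraries. The ratio is 4.28 or more in each Pkm cKO library and 3.56 or less in each control library, and Pkm cKO replicate 3 stands apart in muscle markers.

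The separation was not the same in every library. Relative to the mean of the control libraries, the median mitochondrial gene stood at 0.54, 0.18 and 0.81 on the log2 scale in Pkm cKO replicates 1 to 3, against -0.30, 0.03 and 0.29 in control replicates 1 to 3. The median nuclear gene stood at -0.17, -0.16 and -0.08 in Pkm cKO libraries, against -0.01, -0.13 and 0.12 in control libraries. For the mitochondrial genes Pkm cKO replicate 2 lay within the range of the controls. For the nuclear genes control replicate 2 lay within the range of the Pkm cKO libraries, and Pkm cKO replicate 3 within the range of the controls.

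**Figure D5:**
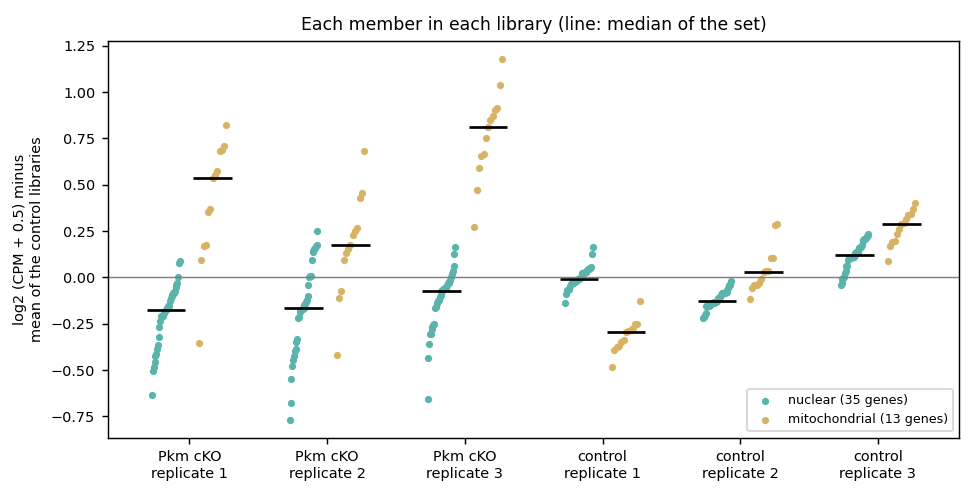
Each member in each library as log2(CPM + 0.5) minus the mean of the control libraries, nuclear genes left and mitochondrial genes right of each position, with the median as a line. In each Pkm cKO library the mitochondrial median lies above the nuclear one, as it does in control replicates 2 and 3, and in control replicate 1 it lies below.

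Other transcripts also differed between the libraries. Pkm cKO replicate 3 had both the highest mitochondrial share and the highest muscle sum. Of the 9 muscle markers, 7 could be tested, and all 7 were wholly higher in Pkm cKO, against 11.2% of all tested genes. Some of them, such as Myh8 with 1 read in each control library, passed the filter through the Pkm cKO libraries alone. The filter thus partly fixed this count, which is no separate support. Leaving this library out, the median log2 fold change of the mitochondrial genes was 0.28 and 12 of 13 were above 0, and that of the nuclear genes was -0.16 with 27 of 35 below 0. Among muscle forms of complex IV subunits, Cox6a2 and Cox8b were by far highest in Pkm cKO replicate 3. Cox7a1, another muscle form, had 10 to 33 reads per library. Cox6a2 had 13, 2 and 654 reads in Pkm cKO replicates 1 to 3, against 6, 8 and 8 reads in control replicates 1 to 3, and Cox8b had 8, 7 and 167 reads in Pkm cKO libraries, against 0 in every control library.

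Of the 9 epithelial and enamel markers, 6 were below 0 and 5 wholly lower in Pkm cKO (12.2% of all tested genes). At an unadjusted p under 0.05 edgeR gave 3, all lower (7.9% of all tested genes). Called markers were 0 by edgeR and 2 by DESeq2. Within the control group the mitochondrial share was lowest in replicate 1, where the epithelial sum was highest, and highest in replicate 3, where it was lowest. Within the Pkm cKO group the order differed, with shares of 2.02%, 1.79% and 2.45% beside epithelial sums of 13715, 9798 and 8416 CPM in replicates 1 to 3. Of the epithelial sums in control replicates 1 to 3, Amelx alone held 18617, 15596 and 8564 CPM. In Pkm cKO replicates 1 to 3 it held 4136, 343.2 and 122.1 CPM. The control sums therefore lean on 1 enamel matrix gene, and the sums do not measure epithelial content alone. In Pkm cKO replicates 1 to 3 Krt5 held more than Amelx, with 4688, 5741 and 5219 CPM. Outside the enamel matrix, Cdh1 (log2 fold change -0.78), Krt14 (-0.76) and Krt5 (-0.43) were wholly lower in Pkm cKO, and 3 of the 9 markers were above 0. With the enamel, hemoglobin and collagen genes removed from the table, the medians were 0.54 for the mitochondrial and -0.12 for the nuclear genes. Immune markers were higher in Pkm cKO, 9 of 9 above 0 and C1qc called (edgeR adjusted p = 0.0487), and 3 of 6 tested erythroid markers were called lower, Hbb-bt among them (edgeR adjusted p = 0.0444). Over all tested genes edgeR called 0.345% as higher and 0.207% as lower. Of the 8 mesenchyme markers, 5 were above 0 and 4 wholly higher in Pkm cKO, Msx1 (log2 fold change 1.07), Barx1 (0.82), Twist1 (1.12) and Col3a1 (1.92), each with an unadjusted p under 0.05. Of all tested genes, 11.2% were wholly higher, and 9.57% were higher at that unadjusted p. The groups of Dspp (log2 fold change -1.49), Col1a2 (-0.14), Col1a1 (-0.09) and Pdgfra (0.045) overlapped. edgeR called 0 of the 8, and DESeq2 called Msx1, Barx1 and Twist1. The part of epithelial, mesenchymal, immune or erythroid cells in the result was not tested.

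Subunits of the chain outside the chosen 35 were also mostly below 0. Beside the counts for these and the lists below, 12.2% of all tested genes were wholly lower and 11.2% wholly higher. At an unadjusted p under 0.05, 7.9% were lower and 9.57% higher by edgeR. Of the 23 other nuclear subunits of complexes I, III and IV, 21 were below 0 (median log2 fold change -0.12), 9 were wholly lower in Pkm cKO and edgeR called 0. At an unadjusted p under 0.05 edgeR gave 8, all lower. Ndufc1 had 26.4, 26.2 and 30.0 CPM in Pkm cKO libraries, against 39.8, 41.6 and 43.7 CPM in control libraries (log2 fold change -0.60, edgeR adjusted p = 0.109). Ndufb1 (-0.62) and Ndufb4 (-0.42), both accessory subunits of complex I like Ndufc1, also had groups that did not overlap. DESeq2 called Ndufc1 and Ndufb1.

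Of 18 nuclear ATP synthase genes, 17 were below 0 (median log2 fold change -0.20), 10 were wholly lower (12.2% of all tested genes) and edgeR called 0. At an unadjusted p under 0.05 edgeR gave 5, all lower (7.9% of all tested genes). Atp5j2, a small subunit of the membrane part, had 138.3, 107.1 and 114.2 CPM in Pkm cKO libraries, against 175.6, 168.2 and 179.9 CPM in control libraries (log2 fold change -0.54, edgeR adjusted p = 0.114), and DESeq2 called it. Atp5k and Atp5md, small membrane subunits as well, stood at -0.50 each. The mitochondrial ATP6 of the same enzyme stood at 0.53.

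Complex II, which feeds electrons from succinate and has no mitochondrial gene, lay about as close to 0 as the nuclear-coded core of complex I (median log2 fold change -0.09). Its 4 genes had a median log2 fold change of -0.09, edgeR called 0, and 0 had an unadjusted p under 0.05. Sdhb (-0.18) was wholly lower in Pkm cKO, and Sdhc (-0.16), Sdhd (0.06) and Sdha (-0.02) overlapped.

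Assembly factors help to build the complexes. Of 14 factors for complex I, 10 were below 0 (median log2 fold change -0.20), edgeR and DESeq2 called 0, and 1, Ndufaf3 (-0.49), had an unadjusted p under 0.05. Foxred1 (-0.30) and Tmem126b (-0.50) came next. Of 23 tested factors for complexes III and IV, 18 were below 0 (median -0.10), edgeR called 0 and 2 had an unadjusted p under 0.05. Pet100, needed for complex IV, had 14.4, 12.8 and 13.3 CPM in Pkm cKO libraries, against 21.5, 19.9 and 25.6 CPM in control libraries (log2 fold change -0.73, edgeR adjusted p = 0.11). Cox17, the copper chaperone of complex IV, stood at -0.81, and Lyrm7, which acts on the Rieske protein, at -0.80. DESeq2 called Pet100 and Cox17.

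The genes for the machinery that makes mitochondrial RNA were spread around 0. Of 22 genes for transcription and maintenance of mitochondrial DNA, 14 were below 0 (median log2 fold change -0.08), edgeR and DESeq2 called 0, and 2, both lower, had an unadjusted p under 0.05. They were Mterf2 (-0.74) and Tefm, the elongation factor of mitochondrial transcription (-0.70), and Tfb1m came next (-0.73). The packaging factor and transcription activator Tfam had 32.0, 35.8 and 44.4 CPM in Pkm cKO libraries, against 31.0, 28.1 and 42.1 CPM in control libraries (log2 fold change 0.15, edgeR adjusted p = 0.757). The polymerase Polrmt stood at 0.42 (edgeR adjusted p = 0.357) and the initiation factor Tfb2m at -0.13, both with overlapping groups.

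Genes that process and stabilise mitochondrial RNA had a median log2 fold change of 0.00 over 18 genes, with 9 below 0, and edgeR and DESeq2 called 0. Rexo2, an exonuclease for short RNAs, was the only one with an unadjusted p under 0.05 (-0.83), followed by Prorp (-0.42). Lrpprc and Slirp together protect mitochondrial mRNAs. Lrpprc stood at 0.18 with overlapping groups, and Slirp had 17.02, 15.96 and 19.1 CPM in Pkm cKO libraries, against 21.7, 21.1 and 24.6 CPM in control libraries (log2 fold change -0.37, edgeR adjusted p = 0.334).

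The 79 genes listed here for the mitochondrial ribosome, which translates the 13 mRNAs, had a median log2 fold change of -0.03 and summed levels of 2390 to 2703 CPM in Pkm cKO and 2388 to 2724 CPM in control libraries. They were listed by symbol, which does not settle whether each product, that of Mrps36 included, is part of the ribosome. Of them 44 were below 0, edgeR called 0 and 3 had an unadjusted p under 0.05, Mrps33 (-0.60), Mrpl33 (-0.51) and Mrps36 (-0.48), all lower. DESeq2 called Mrps33. Other nuclear-coded mitochondrial proteins used as markers of mitochondrial mass had a median of -0.04 over 22 genes, 14 of them below 0, with 0 called by edgeR or DESeq2. Timm44, of the import motor, was the 1 with an unadjusted p under 0.05 and was higher (0.43). The ratio of mitochondrial reads to the reads of these 22 genes was 5.98, 4.57 and 6.45 in Pkm cKO libraries, against 3.04, 3.97 and 4.38 in control libraries, with no overlap.

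Among 12 regulators of mitochondrial biogenesis, 8 were below 0 (median log2 fold change -0.13), edgeR called 0 and 3 had an unadjusted p under 0.05, all lower. Ppargc1a, a coactivator of genes of oxidative metabolism, had 2.42, 4.21 and 5.36 CPM in Pkm cKO libraries, against 9.45, 7.92 and 7.498 CPM in control libraries (log2 fold change -1.05 with an SE of 0.33, adjusted p = 0.154 by edgeR). Its relative Ppargc1b had 8.53, 6.54 and 9.98 CPM in Pkm cKO libraries, against 24.1, 15.95 and 10.6 CPM in control libraries (log2 fold change -1.01 with an SE of 0.31, adjusted p = 0.145 by edgeR). DESeq2 called both. The nuclear receptor Esrrg stood at -0.92 at 1.42 ± 0.19 CPM in Pkm cKO and 2.70 ± 0.29 CPM in control libraries (SD, n = 3 each).

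Of the genes for the factors whose motifs were searched above, Nrf1 and Gabpa had overlapping groups and Yy1 did not. Nrf1 had 40.3, 50.1 and 46.4 CPM in Pkm cKO libraries, against 41.5, 41.0 and 43.9 CPM in control libraries (log2 fold change 0.12, edgeR adjusted p = 0.75). Gabpa stood at -0.12 (edgeR adjusted p = 0.805). Yy1 had 108, 108.5 and 113.4 CPM in Pkm cKO libraries, against 97.9, 95.5 and 101.7 CPM in control libraries (log2 fold change 0.16, edgeR adjusted p = 0.563).

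Tissue-specific and other variant forms of the subunits differed widely in reads. Of 10 such genes 5 could be tested, with a median log2 fold change of 0.28 and 0 called by edgeR or DESeq2, also 0 at an unadjusted p under 0.05. The median was the value of Cox7a2l, which joins complexes III and IV and had 7311 to 10981 reads per library. Cox7a1, a muscle form, stood at 0.79 with 10 to 33 reads per library. Ndufa4l2, a gene induced by low oxygen, stood at 0.52. It had 60.6, 301.3 and 143.7 CPM in Pkm cKO libraries, against 54.1, 124.6 and 174 CPM in control libraries.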

How the data were processed

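RNA was sequenced from 6 samples of dental epithelial cells, 3 Pkm cKO and 3 control, at postnatal day 0. Per the labels' protocols, libraries were made with a universal kit from column-purified total RNA. Read counts per gene were deposited by the authors as whole numbers in 1 table. The submitters' processing notes name fastp, HISAT2 and build mm39. No source used here gives the counting program, strand setting, versions or read length. Overlapping, antisense and near-identical genes therefore cannot be told apart.

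From these counts, genes were kept by filterByExpr and scaled by TMM. Groups were compared with edgeR 4.0.16 (quasi-likelihood test, robust, two-sided) in R 4.3.3, with Benjamini-Hochberg adjustment over 15930 genes and a threshold of 0.05. SE is the log2 fold change over the square root of F. With 30588350 to 39415700 reads per library, counting error was small beside the biological coefficient of variation of 0.3, except for rows of few reads. No 2 libraries were duplicates (chi-square per gene at least 28.2). Alternatives were other scalings and filters, each library left out, a replicate block, DESeq2 1.42.0, limma-voom (limma 3.58.1), no robust estimation, and removal of mitochondrial or of enamel, hemoglobin and collagen genes. The tests were checked on simulated counts. Of 295 entries in 17 lists of other genes, 292 were found, 18 by an alias.

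The members and lists were chosen with earlier results of these data known. All members are named. Of other lists the text names up to 3 genes with the lowest p, Pkm and a few regulators chosen by role, and further genes named as markers, as tissue forms, as factors of searched motifs or among all genes of complex II were chosen after their values were seen. Lengths and mitochondrial sequences came from GENCODE M21 and promoters from RefSeq, both on GRCm38, so no coordinates of the authors' build are given.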

Additional observations from a re-analysis of the deposited data

How the results depend on the processing

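The median log2 fold change stayed positive for the mitochondrial genes (0.283 without Pkm cKO replicate 3 to 0.711 without Pkm cKO replicate 2) and negative for the nuclear genes (-0.059 without control replicate 3 to -0.21 without control replicate 2) in every alternative run. The number of genes called over all genes tested depended on the method, and some alternatives tested another number of genes (24959 with no filter). There were 88 of 15930, against 55 with DESeq2 size factors, 518 with no filter, 708 with the replicate block, 1118 with DESeq2, 2 with limma-voom, 2 without robust estimation, 48 without enamel, hemoglobin and collagen genes, and 0 to 640 with 1 library left out. It was 640 without Pkm cKO replicate 1, 186 when replicate 2 of that group was left out, and 0 without control replicate 1, 2 or 3, where an unadjusted p under 0.05 was found for 1532, 1766 and 2495 genes. Called nuclear genes were 0 to 1 with 1 library left out, Ndufa1 without Pkm cKO replicate 1 (adjusted p = 0.0477), and 1 with DESeq2. Called mitochondrial genes were 1 with no filter, ND1 (0.0109), and 2 with DESeq2. Over its alternatives the adjusted p ran from 0.0234 to 0.441 for Ndufa1, 0.00564 to 0.379 for ND1 and 0.0249 to 0.441 for COX1. The causes were not tested.

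Replicate numbers are shared by both groups, but the labels do not say that they pair samples, and same-numbered libraries correlated at 0.235, 0.015 and 0.215 in their deviations. With the replicate block 1 nuclear gene, Ndufa1 (adjusted p = 0.0448), and 1 mitochondrial gene, ND1 (0.0305), were called, and ND6 stood at -0.065. In these correlations 4 of 6 libraries were closest to their own number.

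Single genes near 0 changed sign. With 1 library left out the range was -0.224 to 0.021 for Ndufa4, -0.274 to 0.019 for Ndufa5, -0.163 to 0.03 for Ndufb8, -0.172 to 0.033 for Ndufs7, -0.103 to 0.057 for Ndufs8, -0.07 to 0.063 for Ndufv1, -0.147 to 0.025 for Uqcrc1, -0.04 to 0.115 for Uqcrfs1, -0.089 to 0.108 for Cyc1, -0.003 to 0.173 for Cox4i1, -0.106 to 0.001 for Cox7c, -0.408 to 0.208 for ND6 and -0.046 to 0.349 for ATP8. Upper-quartile scaling gave 0.034 for Ndufs8 and 0.003 for Uqcrc1. Ndufs8 was at 0.007 with a filter of 1 CPM and at 0.003 without enamel, hemoglobin and collagen genes, and ND6 at -0.039 in limma-voom. In the other 718 comparisons of a member with an alternative, neither sign nor call differed. With only the 7 mitochondrial rows outside COX2 to ND4L, an alternative chosen after the data were seen like that of the groups' overlap without Pkm cKO replicate 3, the median was 0.423. Rows of few reads (ATP8, ND3, ND4L and ND6) have wide intervals.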
